A study of Mus musculus with 26 samples.

Results

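Intermediate filament genes were followed through the differentiation of mouse embryonic stem (ES) cells into spinal motor neurons. The 9 genes were taken by symbol from a table of FPKM, a unit that divides fragment numbers by the length of the gene and the size of the library, for 37450 gene IDs, and each of the 9 symbols had 1 entry. They are the neurofilament genes Nefl, Nefm and Nefh, the neuronal filament genes Ina and Prph, the progenitor filament genes Vim and Nes, and the keratin genes Krt8 and Krt18. Their IDs in the table are ENSMUSG00000022055 (Nefl), ENSMUSG00000022054 (Nefm), ENSMUSG00000020396 (Nefh), ENSMUSG00000034336 (Ina), ENSMUSG00000023484 (Prph), ENSMUSG00000026728 (Vim), ENSMUSG00000004891 (Nes), ENSMUSG00000049382 (Krt8) and ENSMUSG00000023043 (Krt18). Of the 26 samples of the series, 4 carried RNA, with 1 ribosome-depleted total RNA library per day. ES cells of day 0 had no added agent. Progenitors of day 4 had received 1 uM retinoic acid (RA) and 0.25 uM SAG, a Hedgehog pathway agonist, on day 2. Cells of day 5, called postmitotic motor neurons in the labels, had the same agents and 5 uM DAPT, an inhibitor of gamma-secretase and so of Notch signalling, on day 4. Cells of day 6 had DAPT on days 4 and 5. The growth labels name the HBG3 line, which carries a GFP reporter driven by the promoter of the motor neuron gene Hb9, for days 0 and 4 and the iCre line for days 5 and 6, while the cell type labels name Ainv15 throughout, so the step to day 5 joins a change of day, of agent and of line, which cannot be told apart.

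Intermediate filaments are ropes of coiled-coil proteins that give cells mechanical strength, and the genes in use depend on the cell type. Keratins of type I pair with keratins of type II, Krt18 with Krt8 in simple epithelia and in the earliest epithelia of the embryo. Vimentin assembles on its own and together with nestin in neural progenitors. In neurons the light chain encoded by Nefl is the base on which the medium and heavy chains assemble. Internexin alpha (Ina) and peripherin (Prph) can join these filaments, which set the calibre of large motor axons. The heavy chain, encoded by Nefh, is known as a late marker of maturing axons.

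Each of 3 marker lists summed highest in a library whose label it fits. The 7 ES cell markers summed to 1234 FPKM on day 0, against 2.51, 0.697 and 0.732 on days 4, 5 and 6. The 7 progenitor markers summed to 119, 320, 70.8 and 13.05 FPKM on days 0, 4, 5 and 6, with Sox2 alone at 113 FPKM on day 0. On day 5 all 7 were still at 1 FPKM or more, Olig2 at 17.3 and Sox2 at 13.0 FPKM. The part of progenitors in the day 5 levels was not tested. The 7 motor neuron markers stood at 14.6, 208 and 198 FPKM on days 4, 5 and 6. With 1 library per day there is no replicate error and no test, and every difference below is a difference between libraries. Higher and lower mean that FPKM + 1 differed by 2-fold or more, and a gene counts as measured at a step if 1 or both libraries gave it at least 1 FPKM. Differences are of log2(FPKM + 1), the later minus the earlier day. This scale understates the change of low genes. In these bulk cultures fewer cells of a type and less RNA per cell cannot be told apart.

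The make-up of the 9 genes differed between the days. Their summed level on days 0, 4, 5 and 6 was 89.2, 239, 478 and 1244 FPKM, while the FPKM of all genes summed to between 194612 and 255225. Nefl, Nefm, Nefh, Ina and Prph together made up 10.2% of the 9-gene sum on day 0, 8.03% on day 4, 70.4% on day 5 and 90.4% on day 6. These shares moved when a single gene was left out: without Vim they were 19.6%, 33.6%, 97.2% and 98.8%, and without Ina 8.10%, 4.78%, 62.8% and 89.3%. Vim and Nes made up 50.6%, 90.1%, 29.2% and 9.35% on the same days, and the keratins 39.2%, 1.87%, 0.429% and 0.247%. Thus Vim was the most abundant of the 9 on days 0 and 4, and Nefl on days 5 and 6.

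**Figure D1:**
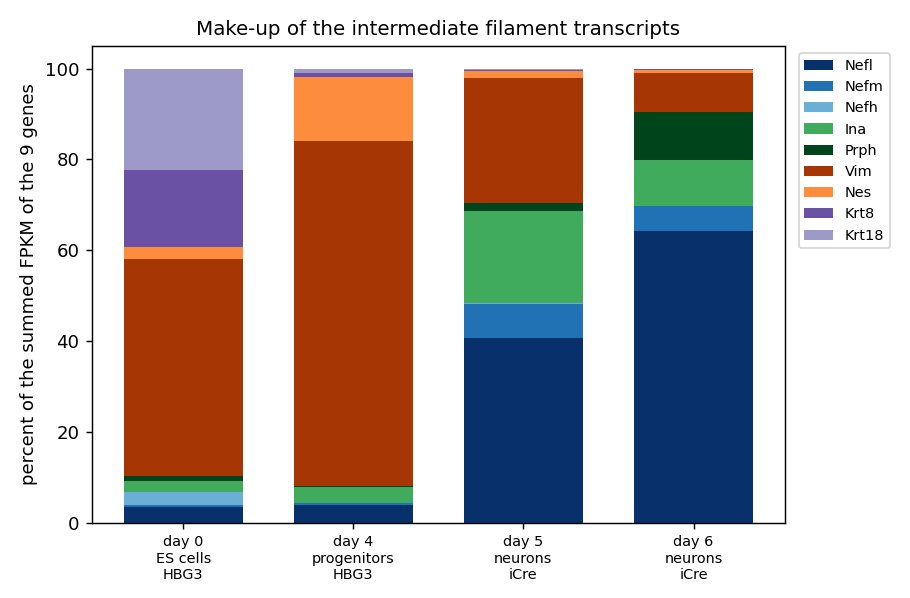
Percent of the summed FPKM of the 9 genes held by each gene on days 0, 4, 5 and 6 (stacked bars, 1 library per day). The keratins (purple) held 39.2% on day 0, Vim and Nes (orange) 90.1% on day 4, and the neuronal genes (blue and green) 90.4% on day 6.

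Nefl, the light chain gene, stood at 3.08, 9.27, 195 and 800.0 FPKM on days 0, 4, 5 and 6. It was higher at each step, by 1.33, 4.25 and 2.03 on the log2 scale, and on day 6 it was the 11th most abundant of the 37450 entries. Nefm, the medium chain gene, was at 0.306 and 0.853 FPKM on days 0 and 4, below the 1 FPKM limit, and at 35.9 and 66.9 FPKM on days 5 and 6. It was higher by 4.32 on day 5. The further difference of 0.88 on day 6 stayed within 2-fold, though it reached 1.02 once the libraries were rescaled to a common median ratio. Nefl and Nefm lie next to each other on chromosome 14, with no protein-coding gene between them in RefSeq, and A230070E04Rik overlaps Nefm there.

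The ratio of the pair was not the same on both days. Nefm stood at 0.0836 of the Nefl level on day 6, against 0.184 on day 5, FPKM being per length and so comparable between genes. Day 5 already held 53.7% of the day 6 level of Nefm, against 24.4% for Nefl.

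Nefh, the heavy chain gene, was far lower than Nefl on days 5 and 6. Its levels on days 0, 4, 5 and 6 were 2.69, 0.449, 0.388 and 1.61 FPKM, so its highest level was in ES cells. On day 4 it was lower than on day 0, with a log2 difference of −1.35. The difference of 0.91 between days 6 and 5 was within 2-fold on the log2(FPKM + 1) scale, and with a pseudocount of 0.1 FPKM in place of 1 it was 1.81 and called higher. As a plain ratio of FPKM, day 6 over day 5 was 4.15 for Nefh and 4.10 for Nefl, and the day 5 level of Nefh was 24.1% of that of day 6. On day 6 the Nefh level was 0.00201 of that of Nefl. These levels are uncertain, because in RefSeq the gene overlaps Ap1b1, a clathrin adaptor gene, which stood at 8.36, 11.1, 12.7 and 11.4 FPKM on the 4 days, and no source used here says whether reads were counted by strand. The part of Ap1b1 reads in the Nefh level was not tested.

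Ina, whose product joins the neurofilaments of central neurons, stood at 2.07, 8.16, 97.1 and 124 FPKM on days 0, 4, 5 and 6. It was higher on day 4 (1.58) and on day 5 (3.42) and within 2-fold on day 6 (0.35). Day 5 held 78.0% of its day 6 level, a larger share than that of Nefl, Nefm or Prph. Ina stood at 0.880 of the Nefl level on day 4, at 0.498 on day 5 and at 0.156 on day 6. The annotated span of Nt5c2, a nucleotidase gene, overlaps Ina in RefSeq, and Nt5c2 stood at 8.48, 9.26, 17.1 and 23.4 FPKM, so the Ina levels of days 0 and 4 are less certain than the later ones.

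Prph encodes peripherin, a filament protein of neurons that project out of the central nervous system, motor neurons among them. Its 4 levels, in the order of the days, were 0.980, 0.436, 8.16 and 132 FPKM. It was higher by 2.67 on day 5 and by 3.86 on day 6, the largest difference of the 9 genes at the last step. Its day 5 level was 6.18% of that of day 6. Prph stood at 0.165 of the Nefl level on day 6, against 0.0419 on day 5, while Ina and Nefm had smaller fractions of the Nefl level on day 6 than on day 5.

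The last step can be set beside that of general neuronal genes, by the level of day 5 as a percent of day 6. This percent does not give the order of first appearance. On day 4 Nefl was at 9.27 FPKM and Nefm at 0.853, though Nefm has the larger percent. Ina (78.0%) lay near Map2, a dendritic microtubule-binding protein gene (75.8%), and the motor neuron factor gene Isl1 (75.6%). Nefm (53.7%) lay between Chat, the acetylcholine synthesis gene (60.9%), and Dcx (45.6%). Nefl (24.4%) was below the growth-associated gene Gap43 (38.3%) and the synaptic genes Snap25 (37.0%) and Syt1 (32.5%), and Prph (6.18%) was below all of the 8 pan-neuronal and 7 motor neuron genes. The 8 pan-neuronal genes summed to 31.3, 32.5, 571 and 980.5 FPKM on days 0, 4, 5 and 6. Without replicates the spread of these percentages is unknown.

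Markers of other peripheral neurons were present in the same libraries. The 10 genes of peripheral sensory and autonomic neurons and neural crest summed to 4.73, 5.03, 54.8 and 62.5 FPKM on days 0, 4, 5 and 6, and 1, 1, 5 and 5 of them reached 1 FPKM. Th, which makes the catecholamine precursor L-DOPA, stood at 10.6 and 25.9 FPKM on days 5 and 6. The neural crest genes Sox10 was at 0.159 FPKM on day 6 and Tfap2a was listed at 0. The part of such cells in the Prph level was not tested.

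**Figure D2:**
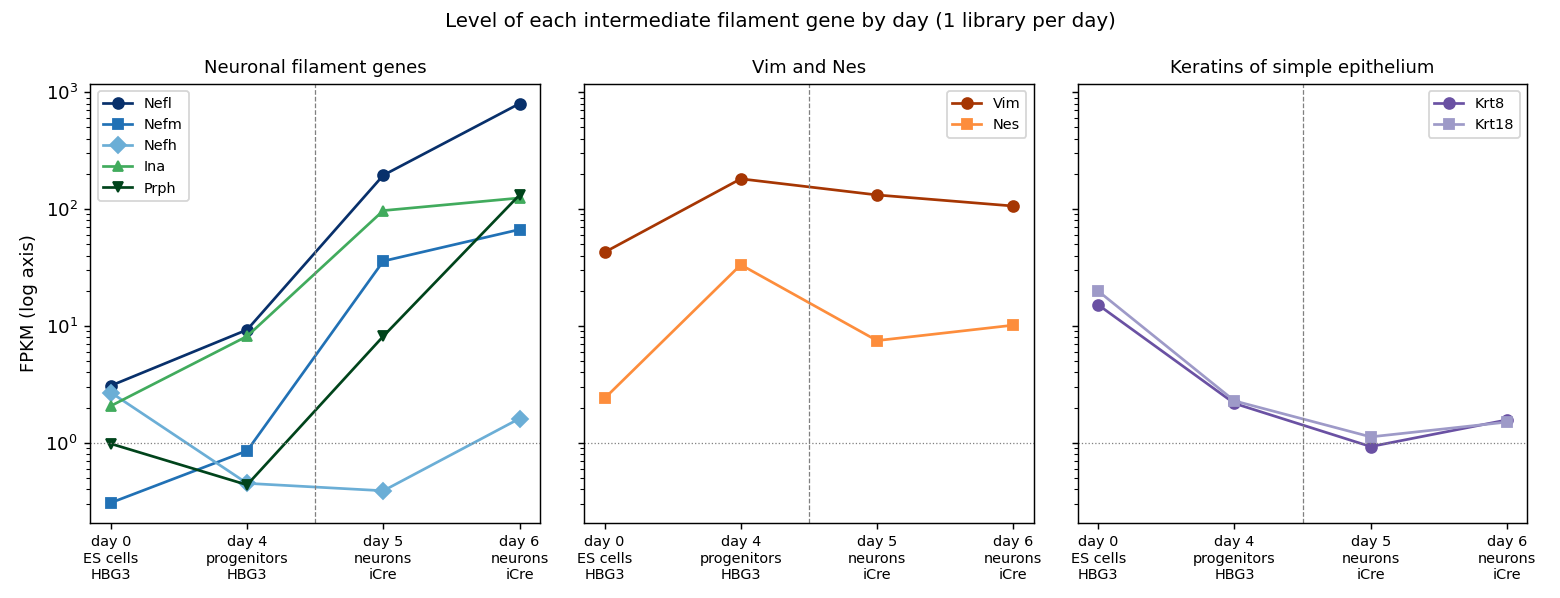
FPKM of each gene on a log axis against the day, drawn at even spacing, with 1 library per point. The dotted line marks 1 FPKM and the dashed line the change from the HBG3 to the iCre line. Nefl reached 800.0 FPKM on day 6, where Nefh was at 1.61, and the 2 keratin lines ran together.

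Vim, the vimentin gene, stood at 42.7, 182, 132 and 106 FPKM on days 0, 4, 5 and 6. It was higher by 2.06 on day 4, and within 2-fold at the later steps (−0.46 and −0.31). Nes, the nestin gene, stood at 2.40, 33.4, 7.48 and 10.1 FPKM on the same days. It was higher by 3.34 on day 4, the largest difference of the 9 genes at that step, and lower on day 5, at −2.02. Between days 6 and 5 it was within 2-fold (0.39). The Nes level was 0.0562, 0.184, 0.0566 and 0.0955 of that of Vim on days 0, 4, 5 and 6, so the pair was closest on day 4.

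Both genes kept more of their day 4 level than most progenitor factors. On day 6 Vim was at 58.5% and Nes at 30.4% of the day 4 level. Among the 7 progenitor markers Nkx6-1, a ventral homeodomain factor also used by motor neurons, was at 42.3%, and the other 6 lay between 0.522% for Pax6 and 4.41% for Notch1. Glial cells also use Vim, and 10 glial markers summed to 5.80, 16.8, 44.7 and 25.3 FPKM on days 0, 4, 5 and 6, with 1, 5, 3 and 3 of them at 1 FPKM or more. Of these Slc1a2, a glutamate transporter gene, stood at 2.61, 23.9 and 6.17 FPKM on days 4, 5 and 6, Mbp at 2.18, 11.5 and 9.90, and Slc1a3, another glutamate transporter gene, at 6.65, 0.339 and 0.146. Fabp7 stood at 3.70, 7.94 and 7.38 FPKM on these days. Gfap, the filament gene of astrocytes, stood at no more than 0.0204 FPKM in any library and was listed at 0 on day 6. The 10 mesenchyme markers summed to 10.4, 1.81, 1.83 and 7.32 FPKM over the 4 days, with 4, 0, 0 and 3 of them at 1 FPKM or more. The part of glial or mesenchymal cells in the Vim and Nes levels was not tested.

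**Figure D3:**
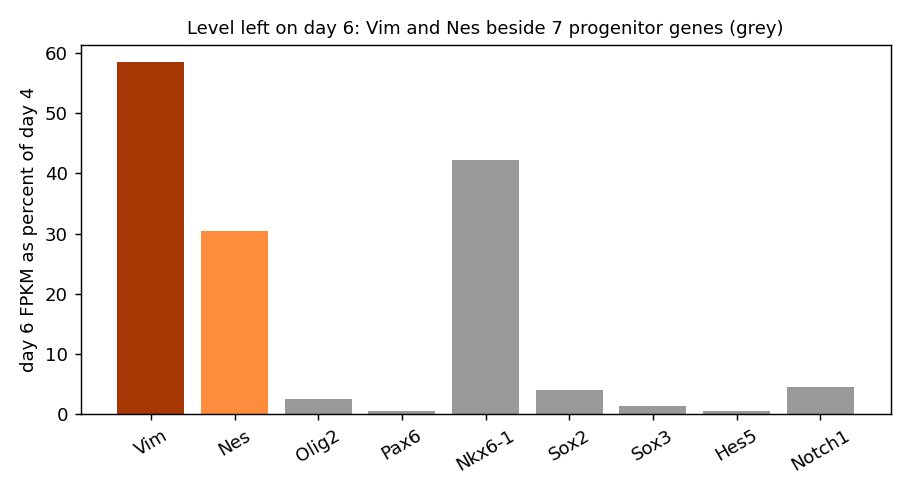
Day 6 FPKM as percent of day 4 FPKM for Vim and Nes (coloured) and 7 progenitor markers (grey), 1 library per day. Vim stood at 58.5% and Nes at 30.4%, while 6 of the 7 markers were at or below 4.41% and Nkx6-1 was at 42.3%.

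Krt8 and Krt18 encode the keratin pair of simple epithelia. Krt8 stood at 15.1, 2.17, 0.927 and 1.57 FPKM on days 0, 4, 5 and 6. Krt18 stood at 19.8, 2.28, 1.12 and 1.5 FPKM. Both were lower on day 4 than on day 0, with log2 differences of −2.35 for Krt8 and −2.67 for Krt18, so their high point lay in ES cells and not in progenitors. At the later steps both were within 2-fold, at −0.72 and −0.63 on day 5 and at 0.41 and 0.24 on day 6. Krt8 was called lower on day 5 (−1.14) with a pseudocount of 0.1 FPKM. RefSeq holds a Krt8 pseudogene, with which Krt8 may share reads, so its low levels are uncertain.

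The levels of the keratin pair stayed near each other, with Krt18 at 1.31, 1.05 and 0.959 of Krt8 on days 0, 4 and 6. On day 5 Krt8 was below 1 FPKM and no ratio is given. On day 6 the Krt8 level was 10.4% and the Krt18 level 7.58% of that of day 0, and 2 genes of epithelial junctions that ES cells also use, Epcam and Cdh1, were at 0.530% and 1.26%. The 15 markers of epithelium, endoderm and trophectoderm summed to 176, 11.4, 7.03 and 8.70 FPKM on days 0, 4, 5 and 6, and 6, 4, 2 and 2 of them reached 1 FPKM. The trophectoderm factor Cdx2 was listed at 0 on days 4, 5 and 6. Foxa2, a factor of endoderm and floor plate, stood at 0.207, 2.49, 2.80 and 3.33 FPKM on days 0, 4, 5 and 6, and Gata4 at 1.05 FPKM on day 6. The part of epithelial cells in the keratin levels was not tested.

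The keratin pair also shares its place in the genome, on chromosome 15, with no protein-coding gene between the genes in RefSeq. RefSeq promoters of build GRCm38.p6 were at hand for 6 of the 9 genes and not for Nefl, Nefm or Nefh. The 80 bases before the annotated start are shown for the keratin pair, whose levels ran together, for Prph and Ina, neuronal genes that differed in timing, and for Vim, which shares TATAAA (in capitals) with Prph.
Prph promoter, GRCm38.p6 chr15:99055094-99055173, plus strand: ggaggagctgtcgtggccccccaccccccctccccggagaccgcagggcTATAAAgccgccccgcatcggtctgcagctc
Ina promoter, GRCm38.p6 chr19:47014601-47014680, plus strand: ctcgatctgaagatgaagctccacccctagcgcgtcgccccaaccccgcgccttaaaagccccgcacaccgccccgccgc
Vim promoter, GRCm38.p6 chr2:13574231-13574310, plus strand: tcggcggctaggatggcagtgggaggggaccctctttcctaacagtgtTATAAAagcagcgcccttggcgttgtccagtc
Krt8 promoter, GRCm38.p6 chr15:102004343-102004422, minus strand: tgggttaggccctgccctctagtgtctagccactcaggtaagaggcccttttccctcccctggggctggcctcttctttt
Krt18 promoter, GRCm38.p6 chr15:102028136-102028215, plus strand: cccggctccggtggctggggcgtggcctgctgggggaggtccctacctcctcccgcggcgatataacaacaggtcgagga

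TATAAA, searched on both strands over the 250 bases before the start, was found in Prph and Vim, against 12.4% of the 32851 promoters of the table. Its first base lay at position −31 in Prph and −32 in Vim, counted from the start. A match on the gene's own strand beginning at −40 to −20, a range chosen after these positions were seen, occurred in 1.99% of all promoters. In Krt8 the same letters began at −1 and ran across the annotated start. The E-box letters CANNTG were found in Krt8, Krt18 and Ina (66.2% of all promoters), GGGCGG in Prph, Nes and Ina (32.7%) and CCAAT in Vim (33.8%). TAATTA (4.84% of all promoters) and ATCGAT (0.728%) were found in none of the 6, and ATCAAT in Krt8 (6.72%). These matches describe the sequences and say nothing of which factor binds.

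The members' calls were set against those of all genes. On day 4 against day 0, 7 of the 9 genes were measured, 4 were higher (Nefl, Ina, Vim and Nes) and 3 were lower (Nefh, Krt8 and Krt18), while 19.3% of 11482 measured genes were higher and 11.9% lower. The median difference was 1.33 for the 7 genes and 0.23 for all genes. On day 5 against day 4, 8 were measured, 4 were higher (Nefl, Nefm, Ina and Prph) and 1, Nes, was lower, against 11.5% of 11339 genes higher and 14.7% lower. The medians were 1.11 for the 8 genes and −0.11 for all genes. On day 6 against day 5, all 9 were measured, 2 were higher (Nefl and Prph) and none was lower, against 6.57% of 11164 genes higher and 6.19% lower. The medians were 0.41 for the 9 genes and −0.07 for all genes. Nefm and Prph could be measured on day 5 only by passing 1 FPKM there, which favours calls of higher. Nefh was measured on day 4 against day 0 only through day 0, which favours a call of lower. On day 6 against day 5, Nefh and Krt8 were measured only through day 6. Krt8 was measured on day 5 against day 4 only through day 4.

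**Figure D4:**
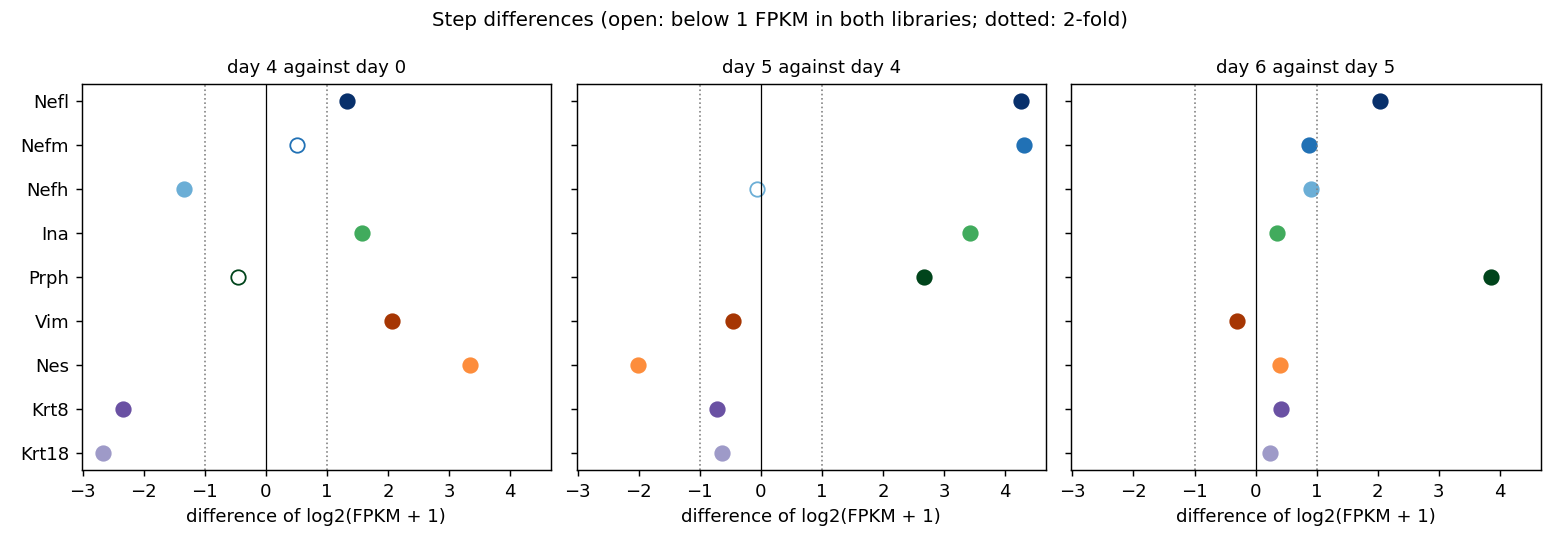
Difference of log2(FPKM + 1), later minus earlier day, for each gene at the 3 steps. Open circles are below 1 FPKM in both libraries and dotted lines mark 2-fold. On day 5 against day 4 the 4 called neuronal genes lay between 2.67 and 4.32, and Nes at −2.02.

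The scaling of the libraries moved the split over all genes. Rescaled to a common median ratio, 1590 genes (13.9%) were higher and 1762 (15.5%) lower on day 4 than on day 0, where the deposited values gave 2219 and 1366. On day 5 against day 4, 1493 (13.4%) were higher and 1302 (11.6%) lower, where the deposited values gave 1308 and 1668. On day 6 against day 5, 917 (8.17%) were higher and 559 (4.98%) lower, where the deposited values gave 734 and 691. The medians of all genes were then −0.01, 0.02 and 0.06. Of the members, Nefm was then called higher on day 6, and Prph counted as measured on day 4 against day 0, within 2-fold (−0.56). The other members' calls were as before.

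Profiles most like each member were sought among 5835 genes that reached 10 FPKM in any library, by the distance between log2(FPKM + 1) profiles centred on their mean over the 4 libraries. Nearest to Nefl were Sst, the somatostatin gene (distance 0.49), the synuclein gene Sncg (0.53) and Dcx, a microtubule-binding protein gene of young neurons (0.79). Sst stood at 1.64, 33.3 and 214 FPKM on days 4, 5 and 6, and was listed at 0 on day 0. Nearest to Nefm were Edil3 (0.39), Arhgap36 (0.42) and Akap6 (0.54), and nearest to Ina were Dpysl3 (0.14) and Crmp1 (0.39), both of the collapsin response mediator family, and Gpm6b (0.41).

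Prph had more distant neighbours, Islr2 (1.00), Slc44a5 (1.15) and the glutamate receptor gene Gria2 (1.34). Islr2 stood at 0.560, 0.147, 13.3 and 81.2 FPKM on days 0, 4, 5 and 6. Nearest to Vim were Ciz1 (0.18), Obfc2b (0.19) and Rec8 (0.20), and to Nes the homeodomain gene Nkx6-2 (0.39), Prrc2a (0.58) and the linker histone gene H1fx (0.59). Nearest to Krt8 were 4930447C04Rik (0.23), Gm10664 (0.24) and Gm14412 (0.25), and to Krt18 the protease gene Ctsc (0.15), Xlr3a (0.16) and Gm10664 (0.20). With 4 points such neighbours depend on the measure: of these 24 names 5 were kept with a pseudocount of 0.1 FPKM and 0 with Pearson correlation.

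The other genes are given by lists, whose medians stand against 0.23, −0.11 and −0.07 for all measured genes on days 4, 5 and 6 against the day before them in the series. Of 30 further keratin genes, 3 reached 1 FPKM on day 0, 0 on days 4 and 5, and 1 on day 6. The 3 counted as measured on day 4 against day 0 only through day 0, so their direction there was set by the filter. Among them Krt19, another simple-epithelium keratin gene, had 0.358 FPKM on day 4, against 4.72 on day 0. Krt42 was listed at 0 on day 4, against 2.98 FPKM on day 0. Of 8 other cytoplasmic filament genes, 3 were measured at each step, with medians of −0.87, 0.49 and 0.39. Iffo1 was higher on day 4 (3.31 FPKM, against 0.836 on day 0) and Des, the muscle filament gene desmin, lower (0.367 FPKM, against 2.45). Synm, the synemin gene, was higher on day 5 (4.84 FPKM, against 0.457 on day 4). Iffo1, Des and Synm were measured at these steps only through their high day, so their direction was also set by the filter. Of all genes, 19.3% were higher and 11.9% lower on day 4, and 11.5% were higher on day 5.

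Genes of a list for axonal transport and anchoring, which also holds Uchl1, a gene of neither role, were called higher or not called. The higher genes were 4 of 12 measured on day 4, 6 of 12 on day 5 and 4 of 13 on day 6 (all genes 19.3%, 11.5% and 6.57%), with none lower and medians of 0.49, 0.98 and 0.57. They include the neuronal kinesin heavy chains Kif5a (18.2 FPKM on day 5, against 1.19 on day 4) and Kif5c (69.0 against 7.50), Ank2 (10.5 on day 4, against 1.38 on day 0) and Klc1 (20.6 against 5.40). On day 6 Dync1i1, a dynein intermediate chain gene, stood at 8.96 FPKM, against 0.502 on day 5, and Uchl1 at 215, against 44.0. Dync1i1 was measured at this step only through day 6, so the filter set its direction.

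Kinases and phosphatases that act on filaments were called in both directions, with medians of 0.55, 0.18 and 0.22. Of 21 measured on day 5, 6 were higher and 3 lower (all genes 11.5% and 14.7%). Mapk10 and Camk2a, higher on day 5, were measured at that step only through day 5, so the filter set their direction. Cdk5r1, the neuronal activator of the neurofilament kinase Cdk5, was higher (25.1 FPKM, against 1.51 on day 4), as was Gsk3b (33.8 against 11.9), and the mitotic vimentin kinases Aurkb (4.59 against 31.8) and Cdk1 (12.1 against 72.7) were lower. On day 6, 3 were higher and 3 lower (all genes 6.57% and 6.19%). Aurkb and Plk1, lower on day 6, were measured at that step only through day 5, so the filter set their direction. The same holds for Camk2b, lower on day 4 and measured there only through day 0. Camk2b stood at 7.93 FPKM on day 6, against 1.35 on day 5, Mapk10 at 7.75 against 1.86, Cdk1 at 1.5 against 12.1 and Aurkb at 0.371 against 4.59. On day 4, 2 of 19 were higher, Prkaca (23.2 FPKM, against 10.4 on day 0) and Mapk3 (9.04 against 3.91), and 1 was lower, Camk2b (0.770 against 2.81), while 19.3% of all genes were higher and 11.9% lower.

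Of 13 turnover and chaperone genes, 2 were higher and 4 lower on day 4 (all genes 19.3% and 11.9%), 0 and 1 of 11 measured on day 5 (11.5% and 14.7%), and 0 and 0 of 10 on day 6 (6.57% and 6.19%), with medians of −0.16, 0.18 and 0.20. The small heat shock gene Hspb1 stood at 2.80 FPKM on day 4, against 72.4 on day 0, and at 0.288 on day 5, and Hspb8 at 0.188 on day 4, against 7.77 on day 0. Bag3 (2.99 FPKM, against 0.500) and Trim2, a ubiquitin ligase gene for the light chain (11.1 against 4.41), were higher on day 4. Bag3 and Hspb8 on day 4 and Hspb1 on day 5 were measured only through their high day. The filter set their direction at these steps.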

How the data were processed

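RNA was measured in 4 libraries, 1 per day. Per the submitters' processing notes, the build was mm9 and the tools included STAR, MACS, HOMER 4.7.2 and Bowtie 0.12.7, with no role given. The authors deposited FPKM per gene. The program that made it and the number of reads per library are not given in the sources used here. Among low genes the most common FPKM ratio was 0.502 for day 0 over day 4 and 1.03 for day 4 over day 5. It was 1.34 for day 5 over day 6. These ratios were held by 4.53%, 10.9% and 13.1% of the low genes. They estimate how much 1 read was worth in 1 library relative to the next. The first is also near that of 1 read against 2 reads of equal worth, and these cannot be told apart here. Python 3.11.15, pandas 2.3.3 and numpy 2.4.6 were used, and the calculations were tested on simulated data. The members and the gene lists were chosen with earlier results of these data known. The text names all members, the 3 nearest profiles of each that reached 10 FPKM, and up to 2 genes up and 2 down per list and step. Further called genes are named where they were measured only through 1 day. List genes were matched by symbol or, for 4, by gene ID. Eppk1 was not matched, and some list genes are not reported here by name. Alternatives were a pseudocount of 0.1, filters of 0 and 5 FPKM, a 3-fold limit and rescaled libraries. Chromatin and binding lists were not used here, since no mm9 annotation was at hand to place them at genes.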

Additional observations from a re-analysis of the deposited data

How the results depend on the processing

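After rescaling, no difference of a member changed sign. The other alternatives alter only the pseudocount, the filter or the limit and could not change a sign, so they are no check of direction. A 3-fold limit left 2 members higher on day 4 against day 0, Vim and Nes, in place of 4 (all genes 7.51%), and a pseudocount of 0.1 FPKM gave 2 lower on day 5 against day 4, Nes and Krt8, in place of 1 (all genes 20.2%). With a filter of 5 FPKM and after rescaling, the counts stayed within 1.5 times of those reported. Leaving out the filter could not change a count, so it is no check. A 2-fold difference of FPKM + 1 already needs at least 1 FPKM in the higher library. Without Ina the neuronal shares on days 0, 4, 5 and 6 were 8.10%, 4.78%, 62.8% and 89.3%, and without Vim 19.6%, 33.6%, 97.2% and 98.8%. Weighting by protein length was not run, as no protein lengths were at hand. With 1 FPKM added to both genes, Nefm to Nefl was 0.188 on day 5 and 0.0847 on day 6, Nefh to Nefl 0.904 on day 0 and 0.00326 on day 6, and Prph to Nefl 0.0468 on day 5 and 0.166 on day 6. Ina to Nefl was then 0.752, 0.892, 0.501 and 0.157 and Nes to Vim 0.0778, 0.188, 0.0637 and 0.104 on days 0, 4, 5 and 6, and Krt18 to Krt8 was 1.29, 1.04 and 0.975 on days 0, 4 and 6. Of the 24 nearest names, 0 were kept with Pearson correlation, 5 with a pseudocount of 0.1 FPKM, 19 with a minimum of 5 FPKM and 21 after rescaling. The cause of these shifts was not tested. No paired analysis was possible because each day has 1 RNA library and no test was made. Without replicates or read numbers, the error of the low levels of Nefh, Krt8 and Krt18 is unknown.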

Other observations

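The nuclear lamins are the intermediate filaments of the nuclear envelope. A list of 8 genes, of lamins and their partners, was measured in every library and summed to 286, 298, 149.8 and 87.5 FPKM on days 0, 4, 5 and 6. Lmnb1, a B-type lamin gene, stood at 73.7, 56.9, 39.5 and 17.9 FPKM on these days, and Lmna, the A-type lamin gene, at 12.8, 1.75, 1.59 and 4.23. Lmna was lower on day 4 against day 0 (−2.33 on the log2 scale) and higher on day 6 against day 5 (1.02), while Lmnb1 was lower on day 6 (−1.10). Banf1, a chromatin-binding partner of the lamina, was higher on day 4 (63.5 FPKM, against 21.3 on day 0) and lower on day 5 (21.0) and on day 6 (5.55). Lbr, the lamin B receptor gene, was lower on day 5 (17.3 FPKM, against 38.6 on day 4). Over the list, 1 gene was higher and 1 lower on day 4, 0 and 3 on day 5, and 1 and 2 on day 6, with medians of −0.50, −0.81 and −0.60. Of all genes, 19.3% were higher and 11.9% lower on day 4, 11.5% and 14.7% on day 5, and 6.57% and 6.19% on day 6.

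Linker genes were called in both directions, with medians of −0.58, −0.04 and 0.12. Dsg2 and Pkp3, lower on day 4, and Dsp and Dsc2, lower on day 5, were measured only through the earlier day. The filter set their direction at these steps. Of 10 measured on day 5, 2 were higher and 3 lower (all genes 11.5% and 14.7%), with Dst, a spectraplakin gene, at 38.6 FPKM on day 5, against 8.42 on day 4, Jup at 4.81 against 1.34, Pkp4 at 3.55 against 15.3 and Dsp, the desmoplakin gene, at 0.830 against 4.00. On day 4, 3 of 13 were lower and none was higher (all genes 11.9% and 19.3%), among them Jup (1.34 FPKM, against 10.9 on day 0) and Dsg2 (0.177 against 3.17). On day 6, with 1 of 8 higher and 1 lower (all genes 6.57% and 6.19%), Plec, the plectin gene, was higher (11.6 FPKM, against 4.52 on day 5) and Pkp2 lower (2.13 against 6.93).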
